A study of Mus musculus with 12 samples.

Results

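A group of 10 transcription factor genes that act in the choice between granulocyte and monocyte fate were followed in leukemia cells from 3 kinds of host. The 10 genes, taken by name from 55401 genes in the table, were Spi1, Runx1, Cebpa, Cebpb, Cebpd, Cebpe, Gfi1, Irf8, Irf4 and Klf4. All 10 passed the filter on low values, a mean of at least 1 TPM (transcripts scaled by gene length and library total) over the libraries, as did 15026 genes in all.

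The cells were mouse acute myeloid leukemia (AML) cells driven by MLL-AF9, a fusion oncoprotein that was introduced with GFP by a retrovirus into bone marrow progenitors. The leukemia was then passed serially, more than 10 times, through recipients that were not irradiated, so all libraries descend from 1 transformed population and all cells carry MLL-AF9 and GFP. The hosts were young adult females of 3 genotypes with 4 libraries each. Wild-type (WT) C57BL/6 mice have a complete immune system, Rag2-/- mice of C57BL/6J background, with a null allele of the recombinase gene Rag2, lack mature T and B cells but keep natural killer (NK) cells, and NSG mice, of NOD background with Prkdc scid and Il2rg null alleles, lack T, B and NK cells. NSG mice thus also differ in strain, so strain and lymphocyte content cannot be told apart in that host. GFP+ cells were collected from moribund mice and their polyadenylated RNA was sequenced. The labels call the libraries biological replicates. Each library held between about 16008900 and 42811400 reads assigned to genes, as recovered from the spacing of the TPM values. The 5 genes used to check the leukemia (Hoxa9, Hoxa10, Meis1, Ptprc and Itgam) were present in every library, with sums between 544 and 653 TPM, whereas 5 T cell genes summed to at most 0.694 TPM, with Cd3e and Trac at 0 throughout. Among B cell genes, Ms4a1 was at 0, Pax5 reached at most 0.057 TPM and Cd79a lay at 0.42 to 3.09 TPM, but Ighm, the heavy chain gene of IgM, was at 122 to 215 TPM in all 3 hosts.

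Myeloid fate is set by a small network of transcription factors. PU.1 (the product of Spi1) and RUNX1 open the myeloid program in progenitors, and C/EBP alpha is needed for the step to granulocyte-monocyte progenitors. Thereafter GFI1 and C/EBP epsilon favour neutrophils, and IRF8 and KLF4 favour monocytes, with GFI1 repressing monocytic genes. MLL-AF9 leukemia resembles a granulocyte-monocyte progenitor arrested in this network, and C/EBP alpha and PU.1 are both known to matter for it.

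None of the 10 factors was called different between hosts in any of the 3 comparisons. A gene was called at an adjusted p below 0.05 (limma with Benjamini-Hochberg adjustment over all 15026 genes) together with a log2 fold change beyond 0.5, and 1.47% of all genes were called between Rag2-/- and WT, 0.213% between Rag2-/- and NSG and 0% between NSG and WT. At these shares, 0 of 10 was close to the background. Small differences separated the Rag2-/- from the WT libraries for 3 of 10 factors, beside 16.9% of all genes. Spi1 was higher, and Cebpa and Gfi1 were lower, in every Rag2-/- library than in every WT library. Several of 13 late neutrophil granule genes are known targets of the C/EBP family. Of the 13, 11 were called higher in Rag2-/- than in WT, beside 1.14% of all genes.

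**Figure D1:**
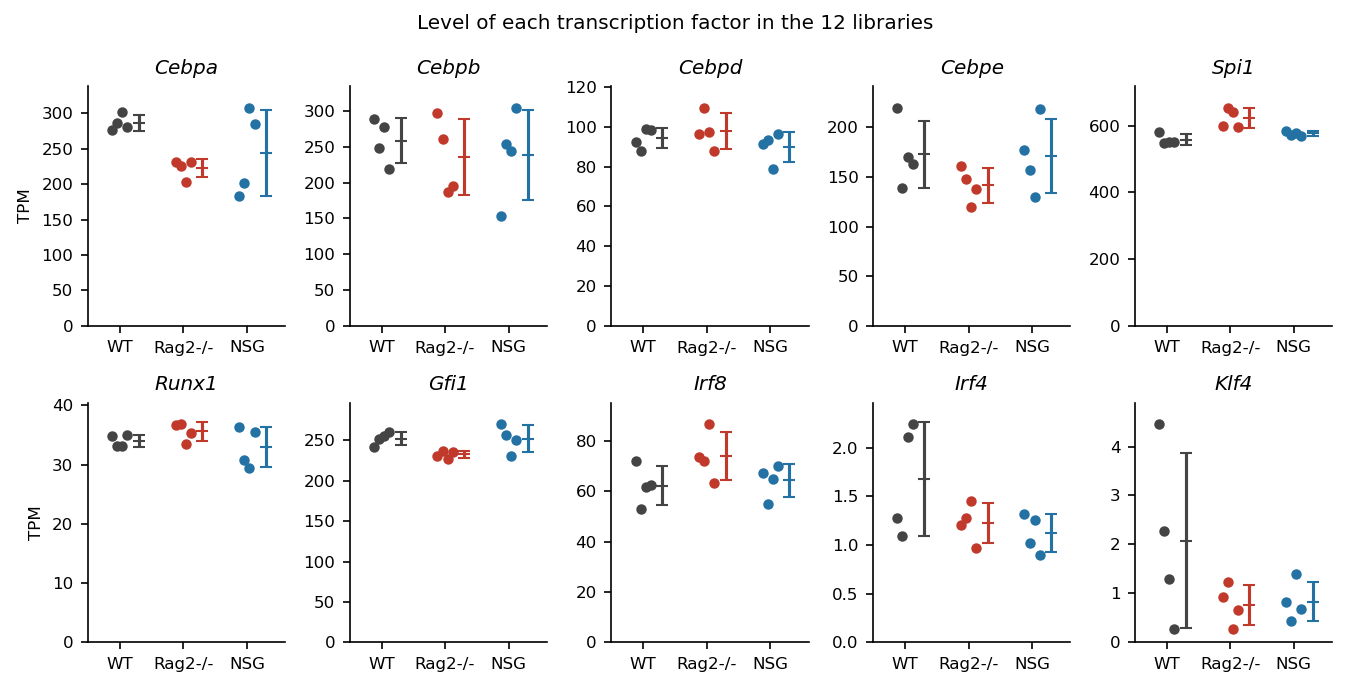
Level of the 10 factors (TPM, linear axes from 0) in each of the 12 libraries, with the mean and SD of the 4 libraries of each host beside the points. Rag2-/- libraries lie above WT for Spi1 and below WT for Cebpa and Gfi1, whereas the 3 hosts overlap for the other 7 genes.

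In order of mean level over the 12 libraries, Spi1 stood first at 586 TPM, above every library's value of any other factor. Cebpa (251 TPM), Gfi1 (245 TPM) and Cebpb (244 TPM) followed and did not differ from each other beyond their spread, since Cebpa exceeded Gfi1, and Gfi1 exceeded Cebpb, in 6 of 12 libraries each. Cebpe (162 TPM) was below Cebpb in 11 of 12 libraries. Cebpd (94.0 TPM), Irf8 (66.8 TPM) and Runx1 (34.2 TPM) came next, each above the following one in 12 of 12 libraries. Irf4 (1.35 TPM) and Klf4 (1.23 TPM) were lowest, with Irf4 above Klf4 in 9 of 12 libraries. The TPM values appear to be scaled by the merged exon length of each gene, from 1241 bases for Cebpe to 12025 for Runx1. The order between genes depends on that length and is approximate. The top 8 factors were all well expressed whichever host the cells had grown in.

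Spi1 (ENSMUSG00000002111, chr2:91082390-91115756, plus strand, GRCm38) encodes PU.1, an ETS factor required for all myeloid cells and dosage sensitive in leukemia. Spi1 was at 582, 548, 551 and 551 TPM in the WT libraries, at 598, 654, 642 and 596 TPM in Rag2-/- and at 586, 574, 579.6 and 569.5 TPM in NSG. Every Rag2-/- library was above every WT and every NSG library, although the highest WT value was close to the lowest Rag2-/- value. The log2 fold change between Rag2-/- and WT was 0.16 with an SE of 0.045 and an adjusted p of 0.0751, the lowest adjusted p of the 10 factors. Against NSG it was 0.11 (SE 0.045, adjusted p = 0.329). Both 95% intervals stayed below 0.5, with upper ends of 0.25 and 0.21. Spi1 was also among the steadiest genes of all: its within-host SD of 0.047 on the log2 scale was lower than that of all but 0.745% of the genes tested. The median gene had an SD of 0.172.

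Runx1 (ENSMUSG00000022952, chr16:92601466-92826149, minus strand), a partner of CBF beta that is needed for definitive hematopoiesis, varied little. It was at 34.7, 33.1, 33.1 and 35.1 TPM in WT, at 36.7, 36.8, 33.5 and 35.4 TPM in Rag2-/- and at 36.3, 30.8, 29.3 and 35.5 TPM in NSG. The 3 hosts overlapped. The log2 fold changes were 0.06, 0.11 and -0.05 for Rag2-/- against WT, Rag2-/- against NSG and NSG against WT, each with an SE of 0.073. All 3 intervals lay within 0.5 of 0.

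Cebpa (ENSMUSG00000034957, chr7:35119293-35121928, plus strand, 1 exon) encodes C/EBP alpha, which is needed to form granulocyte-monocyte progenitors and restrains their proliferation. It was at 276, 287, 302 and 281 TPM in WT and at 231, 226, 203 and 231 TPM in Rag2-/-. The groups did not overlap. The NSG libraries fell into a low pair at 184 and 201 TPM, below every Rag2-/- library, and a high pair at 308 and 284 TPM, at the level of WT. The log2 fold change between Rag2-/- and WT was -0.36 (SE 0.14, 95% interval -0.66 to -0.067, adjusted p = 0.157), the largest of the 8 well-expressed factors. A fit to the 8 libraries of this pair of hosts alone, without the wide spread of NSG, gave an adjusted p of 0.0117, with the log2 fold change still under the limit of 0.5, and the adjusted p over all alternatives ranged from 0.0117 to 0.349. Between Rag2-/- and NSG the log2 fold change was -0.10 and the interval ran from -0.40 to 0.20.

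The promoter window of Cebpa is shown because it is the C/EBP gene whose libraries separated Rag2-/- from WT hosts, and that of Irf8 because GFI1 is known to repress monocytic genes. Sequences are the 250 bases before the start in RefSeq (GRCm38.p6), written 5′ to 3′ along the gene, and capitals mark matches on either strand to any of 5 motifs: TTGCNNAA for C/EBP, GAGGAAG for PU.1, TGTGGT for RUNX, GAAANNGAA for IRF and AAATCAC for GFI1. The Cebpa window held no match.
Cebpa chr7:35119043-35119292 (plus strand): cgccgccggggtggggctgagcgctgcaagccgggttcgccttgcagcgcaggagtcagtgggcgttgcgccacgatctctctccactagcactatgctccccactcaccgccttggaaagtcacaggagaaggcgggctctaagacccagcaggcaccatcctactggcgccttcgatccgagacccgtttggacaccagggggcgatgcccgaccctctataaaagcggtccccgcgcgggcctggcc
Irf8 chr8:120736108-120736357 (plus strand): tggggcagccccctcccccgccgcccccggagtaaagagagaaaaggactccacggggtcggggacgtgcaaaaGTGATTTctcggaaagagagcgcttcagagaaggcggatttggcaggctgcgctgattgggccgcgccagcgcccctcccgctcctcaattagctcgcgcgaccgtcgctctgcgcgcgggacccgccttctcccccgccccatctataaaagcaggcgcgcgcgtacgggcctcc
The Irf8 window printed, at the first of 2 RefSeq starts, held 1 match, to the GFI1 letters on the opposite strand, starting 176 bases before the start, and the window at the second start held 0 matches to the 5 motifs. These GFI1 letters occurred in 2.75% of all 32851 promoter windows. RefSeq promoters were matched for 7 of the 10 factors, with 10 starts in all. The C/EBP letters were in 1 of these 10 windows (Gfi1) against 9.56% of all windows, and the PU.1, RUNX and IRF letters were in none, against 10.6%, 14% and 7.13%.

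Cebpb (ENSMUSG00000056501, chr2:167688915-167690418, plus strand, 1 exon) encodes C/EBP beta, which serves emergency granulopoiesis and monocyte maturation. It was at 288, 248, 278 and 219.5 TPM in WT, at 297, 262, 187 and 195 TPM in Rag2-/- and at 154, 254, 243 and 304 TPM in NSG. The hosts overlapped over almost the whole range. The log2 fold changes were -0.15 against WT and -0.0057 against NSG for Rag2-/-, and -0.15 for NSG against WT, each with an SE of 0.20. With this spread the interval between Rag2-/- and WT ran from -0.58 to 0.28, which includes differences beyond 0.5 and none at all.

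Cebpd (ENSMUSG00000071637, chr16:15887286-15891031, plus strand, 1 exon), an acute-phase member of the family induced by IL-6 and STAT3, was at 92.5, 87.8, 98.9 and 98.2 TPM in WT. In Rag2-/- it was at 96.5, 109.5, 97.5 and 87.8 TPM, and in NSG at 91.2, 93.3, 78.8 and 96.3 TPM. The hosts overlapped, and all 3 intervals lay within 0.5 of 0, the log2 fold changes being 0.05, 0.12 and -0.07 with an SE of 0.078.

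Cebpe (ENSMUSG00000052435, chr14:54710360-54712174, minus strand) encodes C/EBP epsilon, the factor that drives neutrophils from promyelocyte to myelocyte and switches on secondary granule genes. It was at 219.7, 139, 169.8 and 164 TPM in WT, at 161, 148, 119 and 138 TPM in Rag2-/- and at 177, 157, 130.1 and 219 TPM in NSG. The Rag2-/- mean of 142 ± 17.6 TPM was below that of WT (173 ± 34.0) and NSG (171 ± 37.2) (SD, n = 4), but the libraries overlapped. Compared with WT it differed by -0.28 on the log2 scale (SE 0.16, adjusted p = 0.358), and compared with NSG by -0.25 (SE 0.16, adjusted p = 0.574). Without WT replicate 1 the first value was -0.15, and without NSG replicate 4 the second was -0.12. In the fit to all 12 libraries the 95% intervals of these differences in bulk RNA, not adjusted over genes, had upper ends of 0.077 and 0.10. Cebpg, the fifth family member above the filter, was at 3.67% of the summed C/EBP transcripts in WT and 4.09% in Rag2-/-.

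Summed over Cebpa, Cebpb, Cebpd, Cebpe and Cebpg, C/EBP transcripts amounted to 843 ± 59.0 TPM in WT, 727 ± 84.5 TPM in Rag2-/- and 771 ± 124 TPM in NSG (SD, n = 4). The ranges overlapped. Cebpa made up 34.1% of the sum in WT, 30.8% in Rag2-/- and 31.5% in NSG, and Cebpe made up 20.4%, 19.5% and 22.3%. Cebpb took the largest share in Rag2-/- on average, at 32.1%, but its range of 28.8% to 36.3% overlapped that of Cebpa.

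**Figure D2:**
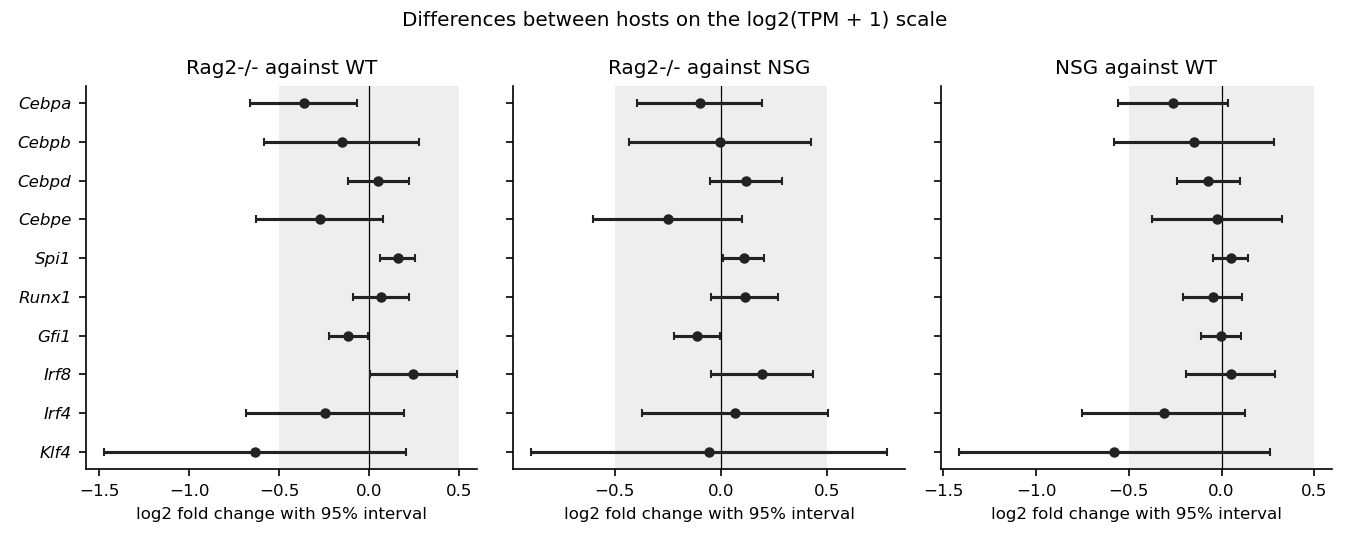
Log2 fold change (points) with its 95% interval (bars) on the log2(TPM + 1) scale for the 10 factors in the 3 comparisons, with 4 libraries a host and the range within 0.5 of 0 shaded. Intervals of 5, 7 and 6 of the 10 factors stay inside the shaded range from left to right, and that of Klf4 is the widest in each.

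Gfi1 (ENSMUSG00000029275, chr5:107716657-107726036, minus strand) encodes a zinc finger repressor that favours neutrophils over monocytes. It was at 242, 251, 255 and 260.4 TPM in WT, at 231, 236, 227 and 235 TPM in Rag2-/- and at 269.6, 257, 230.1 and 251 TPM in NSG. Every Rag2-/- library was below every WT library, while 1 NSG library fell within the Rag2-/- range. On the log2 scale Gfi1 differed from WT by -0.12 (SE 0.050, adjusted p = 0.212) and -0.11 against NSG (adjusted p = 0.373). Like Spi1, Gfi1 was steady within hosts, with an SD of 0.063 at the 3.17 percentile of the genes tested.

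Irf8 (ENSMUSG00000041515, chr8:120736358-120756694, plus strand) encodes an interferon regulatory factor that partners with PU.1 and drives monocyte and dendritic cell fate. It was at 72.0, 52.7, 61.7 and 62.3 TPM in WT, at 73.5, 72.1, 86.5 and 63.3 TPM in Rag2-/- and at 67.3, 55.1, 64.8 and 69.9 TPM in NSG. The Rag2-/- libraries tended to be higher but overlapped both other hosts. Its difference from WT was 0.24 on the log2 scale (SE 0.11, 95% interval 0.0039 to 0.48, adjusted p = 0.232) and 0.19 against NSG (adjusted p = 0.512). Markers of conventional dendritic cells, in which Irf8 is also high, summed to 0.46 to 0.972 TPM in WT, 0.891 to 2.06 TPM in Rag2-/- and 0.669 to 0.849 TPM in NSG over 5 genes, and their part in the Irf8 level was not tested.

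Without adjustment, 4 of 10 factors (Spi1, Cebpa, Gfi1 and Irf8) had a p below 0.05 between Rag2-/- and WT, where 20.9% of all genes did. Between Rag2-/- and NSG it was 2 of 10 (Spi1 and Gfi1) against 12.6%, and between NSG and WT 0 of 10 against 9.16%. By the ranges of the libraries, 3 of 10 factors did not overlap between Rag2-/- and WT, beside 16.9% of all genes, with 1 factor wholly higher (10.2% of all genes) and 2 wholly lower (6.72%). Against NSG only Spi1 was separated, with 6.59% of all genes separated in either direction. NSG and WT overlapped for 10 of 10 factors, with 4.59% of all genes separated.

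The median log2 fold change of the 10 factors was -0.14 between Rag2-/- and WT, 0.03 between Rag2-/- and NSG and -0.06 between NSG and WT, beside 0.02, 0.01 and 0.0049 over all genes tested. The 95% interval lay within 0.5 of 0 for 5, 7 and 6 of the 10 factors in these comparisons, beside 56.4%, 61.5% and 61.9% of all genes. For the factors whose interval did not, it included changes beyond 0.5, so a change of that size was not shown to be absent. Of these wider intervals, only that of Cebpa between Rag2-/- and WT, from -0.66 to -0.067, did not include 0.

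Klf4 (ENSMUSG00000003032, chr4:55527143-55532466, minus strand), a Kruppel-like factor that promotes monocyte differentiation, was at the edge of measurement, with 4 to 63 reads a library. It was at 4.45, 2.28, 1.30 and 0.277 TPM in WT, at 0.921, 1.24, 0.268 and 0.655 TPM in Rag2-/- and at 0.826, 0.44, 1.39 and 0.675 TPM in NSG. The WT libraries spanned the values of both other hosts except for the lowest Rag2-/- library. The log2 fold change of -0.64 between Rag2-/- and WT had an SE of 0.39 and an adjusted p of 0.374, and the interval ran from -1.47 to 0.20. It was -0.30 without WT replicate 1, -0.99 without WT replicate 4 and -0.98 both with a pseudocount of 0.1 and with voom, and none of these passed the test. Its within-host SD of 0.57 was at the 90.1 percentile of all genes.

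Immediate early genes are switched on within minutes of a stimulus. Some of them, such as Fos, Fosb, Egr1 and Dusp1, also varied widely among the WT libraries, while others, such as Ier2 and Btg2, varied less. Egr1, chosen for this comparison after its values were seen, was at 127, 60.3, 31.1 and 2.36 TPM in WT, in the same order as Klf4. Over the 12 libraries Klf4 and Egr1 had a Pearson r of 0.77 and a Spearman rho of 0.82 (n = 12). This was 1 of 3 relations computed, those with Trib1 and Klf2 included. As Egr1 was picked with its values known, no p is given. Without the 2 libraries farthest from the median of Klf4, r was 0.66 (n = 10). Within hosts, with each value taken relative to its host mean, r was 0.83 (n = 12). A list of 12 immediate early genes was also chosen after their values were seen and included 4 of the 5 genes most like Klf4. Of the 12, 9 had the order of Klf4 over the 4 WT libraries, as did 4.19% of all genes tested. The choice favours a high count, so these shares are not a test of a common pattern. The gene most like Klf4, and so picked by its values, was Trib1, which encodes a pseudokinase known to promote the breakdown of C/EBP alpha, and no p is given for it. Trib1 was at 6.62, 2.16, 1.43 and 0.677 TPM in WT, at 0.803, 1.46, 0.916 and 0.572 TPM in Rag2-/- and at 1.35, 0.483, 2.52 and 0.56 TPM in NSG.

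Irf4 (ENSMUSG00000021356, chr13:30749226-30766976, plus strand), which acts in dendritic cells, alternatively activated macrophages and plasma cells, had 27 to 81 reads a library. It was at 1.27, 1.09, 2.11 and 2.24 TPM in WT, at 1.21, 1.28, 1.46 and 0.967 TPM in Rag2-/- and at 1.32, 1.03, 1.26 and 0.903 TPM in NSG. A pair of WT libraries was above the rest and the other two lay among them. The log2 fold change was -0.25 (SE 0.20, adjusted p = 0.528) for Rag2-/- against WT and -0.31 (adjusted p = 0.667) for NSG against WT. These values depended on the scale at so few reads. With a pseudocount of 0.1 they were -0.38 and -0.49, with voom -0.52 and -0.59, and without WT replicate 4 the first was -0.14, none of them past the test. The immunoglobulin light chain gene Igkc, the gene whose pattern over the 12 libraries was most like that of Irf4 and so chosen by its values, was at 4.05, 0.745, 18.0 and 14.7 TPM in WT. It was at or below 0.676 TPM in all 8 libraries of Rag2-/- and NSG hosts, both of which lack mature B cells. The 2 WT libraries with the highest Igkc were the 2 with the highest Irf4, a match that the choice of Igkc by likeness favours. Summed over 12 plasma cell genes, also chosen after their values were seen, the level was 2.74 to 26.2 TPM in WT, 0.036 to 1.07 TPM in Rag2-/- and 0 to 1.04 TPM in NSG, and its part in the Irf4 level was not tested. Igkc and other immunoglobulin genes are in this sum, and Jchain went the same way, at means of 0.798 TPM in WT and 0.0165 TPM in Rag2-/-. Tnfrsf17, Prdm1, Sdc1 and Mzb1 did not, with means of 0.132, 0.0304, 0.0560 and 0.0443 TPM in WT. Their means in Rag2-/- were 0.247, 0.0563, 0.104 and 0.0841 TPM.

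**Figure D3:**
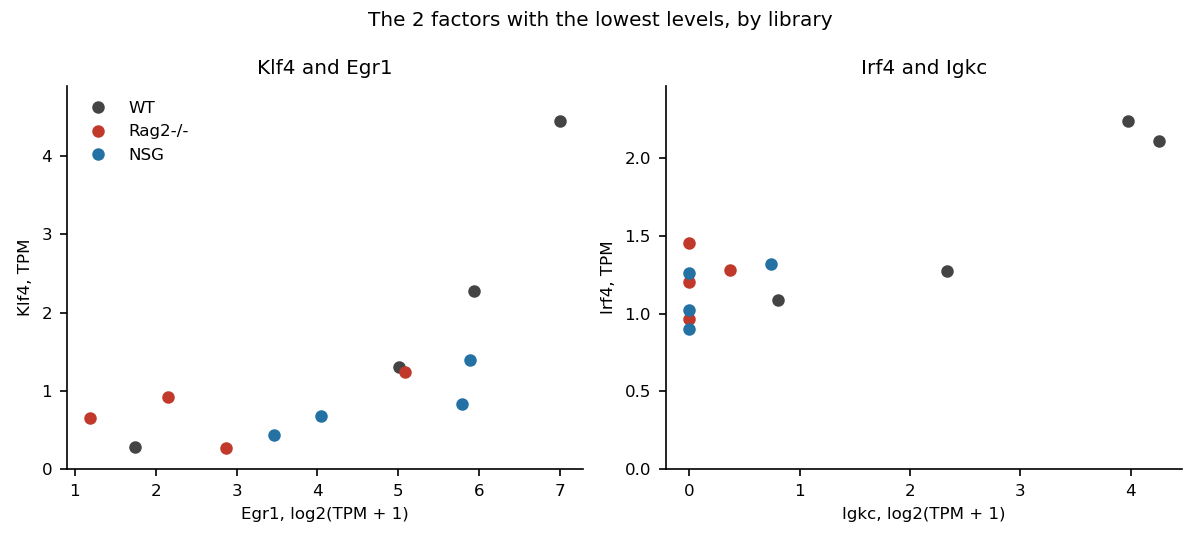
Klf4 (TPM) against Egr1 (log2(TPM + 1)) on the left and Irf4 (TPM) against Igkc (log2(TPM + 1)) on the right, 1 point a library, coloured by host. Klf4 is highest in the WT library with the most Egr1, and the 2 highest Irf4 values belong to the 2 WT libraries with the most Igkc. Egr1 and Igkc were chosen after their values were seen, which favours such matches.

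Ratios within a library show the balance of opposing factors and are given without a test. Gfi1 to Irf8, a neutrophil factor over a monocyte factor, was 4.11 ± 0.576 in WT, 3.19 ± 0.45 in Rag2-/- and 3.95 ± 0.518 in NSG (SD, n = 4), and the lowest WT library at 3.36 fell inside the Rag2-/- range of 2.62 to 3.72. Cebpa to Spi1 was 0.514 ± 0.030 in WT and 0.359 ± 0.034 in Rag2-/-, and these groups did not overlap (0.475 to 0.547 and 0.316 to 0.387). NSG libraries spanned 0.314 to 0.531, across both. The separation of Rag2-/- from WT in this ratio follows from the separations of Cebpa and of Spi1 and adds nothing to them. Cebpe to Irf8 was 2.63 to 3.05 in WT, 1.38 to 2.19 in Rag2-/- and 2.01 to 3.13 in NSG. All 3 ratios were thus lower on average in Rag2-/- than in WT hosts, which restates the directions of their numerators and denominators.

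**Figure D4:**
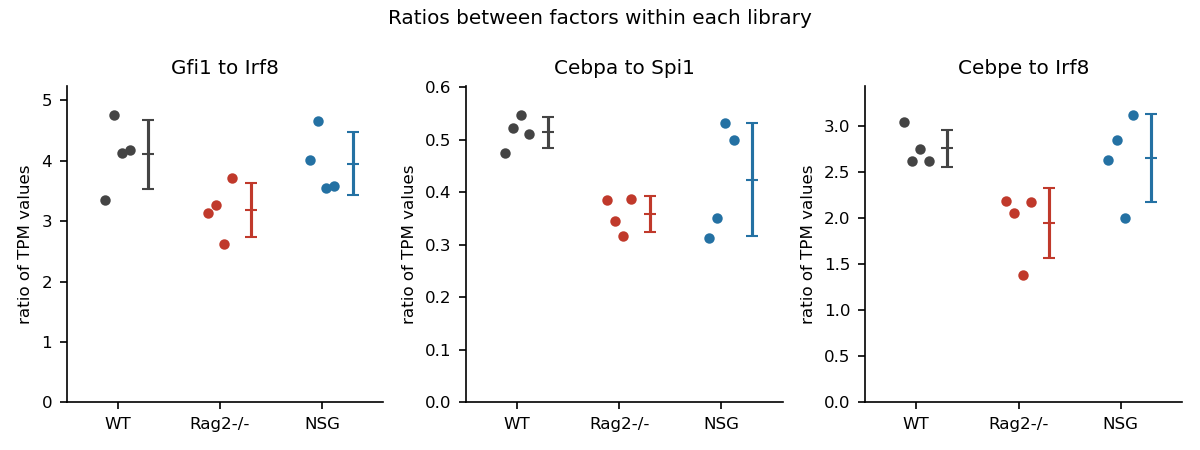
Ratio of TPM values within each library for 3 pairs of factors, with the mean and SD of the 4 libraries of each host. Cebpa to Spi1 and Cebpe to Irf8 separate Rag2-/- from WT libraries, and NSG libraries spread over both ranges for Cebpa to Spi1. For Cebpa to Spi1 the separation follows from those of the single genes.

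Among 28 other transcription factors and regulators of the myeloid lineage, of which 23 were tested, 2 were called higher in Rag2-/- than in WT and 0 lower, beside 1.14% and 0.326% of all genes. Id2, an inhibitor of E proteins that is needed for dendritic cells, was at 20.1, 17.4, 21.8 and 19.1 TPM in WT and at 26.2, 30.4, 38.6 and 32.0 TPM in Rag2-/- (log2 fold change 0.66, SE 0.16, adjusted p = 0.045). Irf5, an interferon regulatory factor of inflammatory macrophages, was at 20.1, 19.2, 22.1 and 20.9 TPM in WT and at 32.3, 30.1, 42.1 and 27.1 TPM in Rag2-/- (0.63, SE 0.13, adjusted p = 0.0309). Rag2-/- and WT libraries did not overlap for either gene. Between Rag2-/- and NSG, and between NSG and WT, 0 of the 23 were called. The median log2 fold change of the 23 between Rag2-/- and WT was 0.15.

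The late granule genes are read out here because C/EBP factors are known to act on them. Of 13 genes for secondary and tertiary granule contents and related late neutrophil products, all tested, 11 were called higher in Rag2-/- than in WT (beside 1.14% of all genes), 8 were called higher than in NSG (beside 0.193%) and 0 were called between NSG and WT. S100a9, a calcium-binding alarmin, was at 21.9, 21.6, 24.99 and 31.2 TPM in WT and at 701, 554, 494 and 148 TPM in Rag2-/- (log2 fold change 4.00, SE 0.40, adjusted p = 0.00242). Ngp, a neutrophilic granule protein, was at 15.5, 11.2, 19.7 and 19.4 TPM in WT and at 301, 205, 246 and 79.0 TPM in Rag2-/- (3.46, SE 0.33, adjusted p = 0.00242). Rag2-/- replicate 4 had the lowest value of its host for both genes and still lay above all WT libraries.

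Retnlg, a resistin-like gene of mature neutrophils, rose by 4.11 on the log2 scale (SE 0.51, adjusted p = 0.00448) from 1.45 to 4.99 TPM over WT libraries to 18.2 to 102 TPM over Rag2-/- libraries. Mmp9, gelatinase B of tertiary granules, rose by 3.31 on the same scale (SE 0.38, adjusted p = 0.00313). The median log2 fold change of the 13 genes was 2.97 against WT and 2.42 against NSG. Over the same libraries Cebpe had its log2 fold change of -0.28 and Gfi1 of -0.12. In the fit to all 12 libraries none of the 4 C/EBP factors, nor Gfi1, was called. With the 8 Rag2-/- and WT libraries alone, Cebpa had an adjusted p of 0.0117 (limma) at a fold change under the limit of 0.5. Whether these factors had a part in the levels of the granule genes was not tested. A set of 6 mature neutrophil markers, 4 of them shared with the granule list, summed to 99.96 to 162 TPM in WT, 196 to 513 TPM in Rag2-/- and 114 to 154 TPM in NSG. In bulk RNA, a larger number of cells of a kind and more RNA per cell cannot be told apart.

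**Figure D5:**
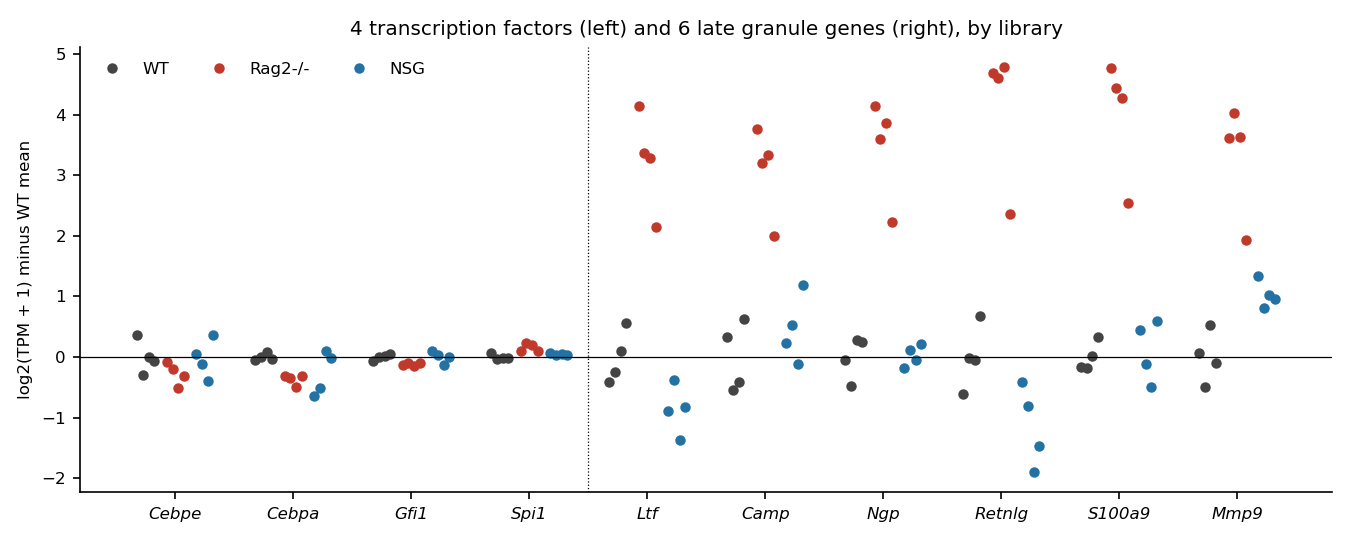
Level of 4 factors (left of the dotted line) and 6 late granule genes (right) in each library, as log2(TPM + 1) minus the mean of the 4 WT libraries, coloured by host. Factors stay within 1 of the WT mean in all libraries, whereas the Rag2-/- libraries lie above all WT and NSG libraries for each of the 6 granule genes.

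The promoter windows of S100a9 and Retnlg, 2 of the granule genes with the largest rise, are shown with matches to the 5 motifs in capitals, as above.
S100a9 chr3:90695722-90695971 (minus strand): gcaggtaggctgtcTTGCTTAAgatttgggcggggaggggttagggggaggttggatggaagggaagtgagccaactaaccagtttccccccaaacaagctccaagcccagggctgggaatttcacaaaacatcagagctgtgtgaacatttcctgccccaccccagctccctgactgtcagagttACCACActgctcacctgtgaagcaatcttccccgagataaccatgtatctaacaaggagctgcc
Retnlg chr16:48872358-48872607 (plus strand): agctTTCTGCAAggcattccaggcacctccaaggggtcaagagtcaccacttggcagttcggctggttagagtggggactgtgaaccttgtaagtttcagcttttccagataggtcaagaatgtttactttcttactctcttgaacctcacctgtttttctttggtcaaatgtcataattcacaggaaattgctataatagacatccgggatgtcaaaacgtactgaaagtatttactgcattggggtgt
The C/EBP letters began 236 bases before the start of S100a9 and 246 bases before that of Retnlg, and S100a9 also held the RUNX letters 64 bases before its start. Of the 12 late granule genes with a RefSeq promoter, 6 held the C/EBP letters (50% of windows, beside 9.56% of all windows) and 4 held the PU.1 letters (33.3% beside 10.6%). Of 6 primary granule genes, 0 held the C/EBP letters and 5 held the PU.1 letters. These are counts of letters and not of bound sites.

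Of 7 primary granule genes, which are expressed at the promyelocyte stage, 2 were called lower and 0 higher in Rag2-/- than in WT, beside 0.326% and 1.14% of all genes. Mpo, myeloperoxidase, was at 537, 508, 593 and 574 TPM in WT, at 121, 102, 70.1 and 287 TPM in Rag2-/- and at 710.4, 394, 219 and 444 TPM in NSG (log2 fold change -2.13, SE 0.39, adjusted p = 0.0189 against WT). Prss57, a serine protease of azurophil granules, was at 130.2 ± 8.71 TPM in WT and 82.8 ± 9.73 TPM in Rag2-/- (SD, n = 4), a log2 fold change of -0.65 (SE 0.11, adjusted p = 0.0154). The median of the 7 genes was -0.18 against WT. Against NSG 0 of 7 were called, with log2 fold changes of -1.69 for Mpo (adjusted p = 0.0968) and -0.34 for Prss57 (adjusted p = 0.215).

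Of 9 genes of monocytes, the other output of the network, 1 was called lower and 0 higher in Rag2-/- than in WT (beside 0.326% and 1.14% of all genes), and 0 were called against NSG (beside 0.213%). The called gene was Ly6c2, a surface antigen of inflammatory monocytes, at 633, 514, 642 and 614 TPM in WT and at 223, 267, 356 and 482 TPM in Rag2-/- (log2 fold change -0.91, SE 0.22, adjusted p = 0.0461). The list did not move 1 way. Ctss rose by 0.47 (limma, SE 0.091, adjusted p = 0.023), under the limit of 0.5. The median of the 9 genes was -0.12, with 1 gene wholly higher and 3 wholly lower in Rag2-/- than in WT. Of 7 growth factor and cytokine receptors, 0 were called in any comparison, beside 1.47%, 0.213% and 0% of all genes. The 4 with the largest differences between Rag2-/- and WT were Kit, the stem cell factor receptor, at -0.42 (adjusted p = 0.0839), Csf2rb, the shared beta chain, at 0.24 (adjusted p = 0.0898), Flt3 at -0.19 and Csf2ra, the GM-CSF receptor, at 0.19.

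Genes used as markers of other cell types differed between hosts in some lists. Whether host cells or the leukemia cells expressed them was not tested. NK cell markers summed to 0 to 0.728 TPM in WT, 1.51 to 4.14 TPM in Rag2-/- and 0.121 to 2.69 TPM in NSG over 5 genes. The macrophage gene C1qc was called higher in Rag2-/- than in WT (log2 fold change 1.28, SE 0.26, adjusted p = 0.025), and the sum of 6 macrophage markers was 89.9 to 97.4 TPM in WT, 99.5 to 114 TPM in Rag2-/- and 55.2 to 112 TPM in NSG. Of 5 eosinophil and basophil markers, with sums of 33.1 to 45.1 TPM in WT, 60.8 to 67.5 TPM in Rag2-/- and 43.2 to 59.6 TPM in NSG, Mcpt8, a mast cell protease gene of basophils, made up most and was called higher in Rag2-/- than in WT (log2 fold change 0.58, SE 0.12, adjusted p = 0.0338). Epx of eosinophils reached at most 0.48 TPM. The part of these markers in the levels of the 10 factors was not tested. Genes annotated on the opposite strand overlap Cebpa, Cebpb, Cebpd, Gfi1 and Runx1. As the strand setting of the counting is not given in the sources used here, their reads could not be told apart from those of the factors. The overlapping gene with the highest level was Tmem189 at Cebpb, at 38.5 to 50.6 TPM.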

How the data were processed

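RNA from GFP+ leukemia cells was sequenced as read pairs. According to the study's methods, the authors mapped the pairs with HISAT2 (build mm10) and derived TPM from gene counts; the counting tool and strand setting are not given in the sources used here. The deposited table holds TPM for 55401 genes by 12 libraries, summing to 1000000 in each. Symbols and positions came from GENCODE M21 (GRCm38), which matched 55141 genes. Values were tested on log2(TPM + 1) with limma 3.58.1 (R 4.3.3; linear model over 12 libraries, moderated with a trend) for genes averaging 1 TPM or more, with Benjamini-Hochberg adjustment. Fold changes are on this scale, which understates changes of low genes. Read numbers were recovered from TPM times exon length; 98.4 to 98.9% of genes under 20 reads were whole within 0.01 of a read, and 3 reads were taken as the floor. Correlations are Pearson r and Spearman rho, given without a test (SciPy 1.17.1). Mates appear to have been counted singly, so reads are not independent molecules. The script was tested on simulated data.

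The 10 factors and all other lists were chosen with earlier results of these data known. Every factor is named. From each other list of factors, granule genes, monocyte genes and receptors the called genes are named, or, where more than 4 or none were called, the 4 with the largest absolute log2 fold change between Rag2-/- and WT. Immediate early genes, plasma cell genes and genes of like pattern were added, and marker genes and Ctss named, after their values were seen. Motifs were searched on both strands of RefSeq promoters (GRCm38.p6). Alternatives covered the pseudocount, the filter, normalization, the model, a replicate block, leaving out each library and, chosen after seeing the data, voom on the recovered reads.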

Additional observations from a re-analysis of the deposited data

Results flagged for a closer look

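In 39 groups of 4 libraries (the 10 factors and 3 ratios in each host), 2 had a library far from the other 3 by Dixon's criterion at 95%, where chance gives about 1.95. Spi1 in WT replicate 1 was at 582 TPM, while the other 3 WT libraries were at 548 to 551 TPM, a gap of 0.898 of the group's range. The ratio of Cebpe to Irf8 in Rag2-/- replicate 3 was 1.38, while the other 3 Rag2-/- libraries were at 2.06 to 2.19, a gap of 0.838 of the range.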

How the results depend on the processing

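No factor was called in any of 23 alternatives for each comparison, including all 12 fits that left out 1 library. Of 684 values of single factors, 661 kept their direction and side of the threshold, and Klf4 and Irf4 could not be tested where at least 1 TPM was required in every library. The 23 that changed sign were at most 0.12 in size on the log2 scale. With quantile normalization these were Cebpb (0.0039) and Klf4 (0.018) for Rag2-/- against NSG and Gfi1 (0.0056) for NSG against WT. With voom they were Cebpe (0.018) and Gfi1 (0.0091) for NSG against WT. With 1 library left out, Cebpd ranged from -0.0068 to 0.099 for Rag2-/- against WT; Cebpa from -0.23 to 0.021, Cebpb from -0.20 to 0.12 and Klf4 from -0.18 to 0.094 for Rag2-/- against NSG; and Cebpb from -0.28 to 0.049, Cebpe from -0.15 to 0.098, Gfi1 from -0.036 to 0.039, Irf8 from -0.026 to 0.12 and Runx1 from -0.094 to 0.0050 for NSG against WT. The cause of these changes was not tested. Beside values given with the factors, Cebpa for NSG against WT went from -0.26 to -0.14 without NSG replicate 1, and Klf4 for NSG against WT from -0.58 to -0.24 without WT replicate 1 and -0.94 without WT replicate 4.

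Calls over all genes moved more. Between Rag2-/- and WT they were 221, and became 114 with no filter, 355 with the 8 libraries alone and 420 with no limit on the fold change. Voom gave 284, split into 186 higher and 98 lower where 172 and 49 were counted otherwise. Leaving out 1 library gave 47 to 326. Between Rag2-/- and NSG the 32 calls became 14 with a pseudocount of 0.1, 7 with no filter, 19 with quantile normalization, 11 with median-ratio scaling, 18 without a trend, 6 with 8 libraries alone and 59 with voom, and 4 to 90 with 1 library left out. Between NSG and WT the 0 calls became 2 with no filter, 1 with voom and 0 to 2 with 1 library left out. Counts moved by over 1.5 times between Rag2-/- and WT when leaving out WT replicate 2 gave 47, replicate 3 gave 120 and replicate 4 gave 140, and Rag2-/- replicate 2 gave 53 and replicate 3 gave 51. Between Rag2-/- and NSG, dropping WT replicates 1, 3 and 4 in turn gave 20, 19 and 12, dropping Rag2-/- replicates 1 to 4 gave 6, 5, 4 and 90, and dropping NSG replicates 1 to 4 gave 8, 5, 87 and 5. Between NSG and WT, dropping WT replicate 2 gave 2 and dropping NSG replicate 2 gave 1.

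With the replicate number as a block, calls were 165 between Rag2-/- and WT, 5 between Rag2-/- and NSG and 0 between NSG and WT, and no factor was called. The numbers did not pair the libraries: deviations of same-numbered libraries correlated at -0.091 to 0.032 over 12 pairs, and 0 of 12 libraries correlated best with its own number. Depth limits Klf4 and Irf4 most, with 4 to 63 and 27 to 81 reads a library.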

Other observations

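Over the 12 libraries, the gene most like Spi1 was Alox5, arachidonate 5-lipoxygenase of leukotriene synthesis. Chosen after its values were seen, Alox5 was at 18.1, 12.99, 15.5 and 16.0 TPM in WT, at 35.2, 61.3, 58.8 and 29.6 TPM in Rag2-/- and at 20.3, 16.8, 21.0 and 22.4 TPM in NSG. The 2 Rag2-/- libraries with the highest Spi1 (654 and 642 TPM) had the highest Alox5, a match that the choice of Alox5 by likeness favours. The stefin gene Stfa1, next in likeness, was at 102 to 263 TPM in WT, 441 to 1079 TPM in Rag2-/- and 249.7 to 328 TPM in NSG.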
